A study of Homo sapiens with 5 samples.

Results

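Within 1 stretch of human chromosome 11, PC, C11orf86 and SYT12 had 2.46 to 4.69 times as many normalized reads in gefitinib-tolerant PC9 cells as in parental cells. The genes around them, and LRFN4 inside PC, did not pass the test, which 0.552% of all tested genes passed. The stretch was described through 7 genes, PC, C11orf86, LRFN4, RCE1, C11orf80, SYT12 and RHOD, found as the rows of the authors' deposited table with those symbols, 7 of 27477 rows. PC and C11orf86 drew attention to the stretch because of their fold changes in this same comparison. All values below that compare the groups are therefore a description of genes chosen with them in view, and no test is drawn from them.

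The study measured poly(A) RNA of PC9, an established lung adenocarcinoma line that carries an activating deletion in EGFR and depends on that receptor for growth. The parental group had 3 libraries of PC9 with no drug named in their titles. The drug-tolerant group had 2 libraries of PC9 exposed for 6 days to 50 nM gefitinib, which blocks the EGFR kinase, and then returned to growth medium for another 3 days. Both groups share the 1 cell line, its EGFR mutation and its medium, and no second line entered the comparison. The labels do not say whether libraries came from separate cultures, so the p-values reflect how far these 5 libraries scatter, and that scatter may be technical. In bulk RNA, a change in the number of cells that carry a transcript and a change in transcript per cell cannot be told apart. Of 7 epithelial markers, 6 had mean levels high enough to be tested and 0 were called by DESeq2, also at an unadjusted p under 0.05. Over all tested genes the shares were 0.552% and 10.8%. KRT8 stood at a mean of 35758 normalized reads in the authors' deposited table and EPCAM at 8755, while NKX2-1, the lung lineage factor, stood at 2.83. PECAM1, an adhesion gene used as an endothelial marker, had a mean of 1616 and COL1A1, a fibroblast marker, 162.4 in the authors' deposited table. PECAM1 has a log2 fold change of 0.57 ± 0.26 (SE), an unadjusted p of 0.028 and an adjusted p of 0.44 there, and the endothelial marker CDH5 has 0.36 ± 0.26 (SE) and an adjusted p of 0.53. None of these was called at an adjusted p under 0.05, and the part of other cells in the results was not tested.

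Pyruvate carboxylase, the product of PC, is a biotin-carrying enzyme of the mitochondrial matrix that joins bicarbonate to pyruvate and yields oxaloacetate. This step refills the citric acid cycle when its intermediates are drawn off for synthesis, and non-small-cell lung tumours are known to use it. The other genes of the stretch belong to unrelated families. RCE1 encodes the endoprotease that trims the tail of prenylated CAAX proteins such as Ras, RHOD encodes a small GTPase that acts on actin and endosome movement, and LRFN4 encodes a leucine-rich repeat adhesion molecule of synapses. SYT12 encodes an atypical member of the synaptotagmins, which serve in vesicle traffic. C11orf80, also named TOP6BL, encodes the partner of SPO11 that is needed for meiotic DNA breaks, and C11orf86 is an open reading frame whose product is little described.

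The members span 328 kb of GRCh38. Among them PC, C11orf86 and SYT12 follow one another along the chromosome, apart from LRFN4, which was not called and lies inside PC. C11orf80 (ENSG00000173715) lies at chr11:66744451-66843328 on the plus strand. RCE1 (ENSG00000173653) follows on the same strand at chr11:66842835-66846546 and overlaps the end of C11orf80 by 494 bases, of which 381 are exonic in both. PC (ENSG00000173599) lies on the minus strand at chr11:66848233-66958376, 1.69 kb beyond RCE1. LRFN4 (ENSG00000173621), at chr11:66856647-66860475 on the plus strand, is contained in the last part of PC, and 621 bases are exonic in both genes. C11orf86 (ENSG00000173237) lies at chr11:66975277-66977004 on the plus strand, SYT12 (ENSG00000173227) at chr11:67006778-67050863 and RHOD (ENSG00000173156) at chr11:67056818-67072013, both also on the plus strand. All 7 are annotated as protein-coding.

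PC reads leftward, so its start lies at the end nearest to C11orf86. The starts of PC and C11orf86 are 16.9 kb apart and point away from each other, and the start of SYT12 is 48.4 kb from that of PC. The starts of the members that did not pass the test lie farther away, at 98.4 kb for RHOD, 102 kb for LRFN4, 116 kb for RCE1 and 214 kb for C11orf80. Besides PC, the members that passed, C11orf86 and SYT12, have the starts nearest to that of PC. PC and C11orf86 were chosen on this contrast, so nothing is read from this order. Of 12 annotated genes in the members' span, 9 have a row in the table.

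RefSeq (GRCh38.p14) gives PC 3 alternative starts, and the 300 bases around each are shown because the table has 1 row for PC and does not say which start was used. Each window runs from 250 bases before the start to 50 after it, written 5′ to 3′ on the minus strand. Capitals mark matches to GGGCGG, a GC box, on either strand.
PC, chr11:66958334-66958633: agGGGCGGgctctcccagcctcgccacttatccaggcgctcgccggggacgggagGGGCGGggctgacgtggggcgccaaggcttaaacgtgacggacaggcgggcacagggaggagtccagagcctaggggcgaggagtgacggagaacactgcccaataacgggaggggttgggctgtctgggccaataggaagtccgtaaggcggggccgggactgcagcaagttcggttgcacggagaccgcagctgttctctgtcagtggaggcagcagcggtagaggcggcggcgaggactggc
PC, chr11:66907904-66908203: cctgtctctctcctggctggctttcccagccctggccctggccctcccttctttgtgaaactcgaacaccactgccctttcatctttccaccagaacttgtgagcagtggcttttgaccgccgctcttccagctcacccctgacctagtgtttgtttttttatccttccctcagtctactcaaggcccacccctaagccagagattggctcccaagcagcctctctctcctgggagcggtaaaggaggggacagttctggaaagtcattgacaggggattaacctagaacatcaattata
PC, chr11:66905985-66906284: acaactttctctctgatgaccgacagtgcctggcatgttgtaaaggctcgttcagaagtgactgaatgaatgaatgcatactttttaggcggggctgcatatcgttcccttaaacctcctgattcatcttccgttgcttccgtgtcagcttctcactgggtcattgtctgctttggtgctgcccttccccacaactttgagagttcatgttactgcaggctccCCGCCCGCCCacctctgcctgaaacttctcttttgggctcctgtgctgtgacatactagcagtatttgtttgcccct
The windows differ in composition. The first, at the outer end of the gene, is 67.7% G or C with 25 CG dinucleotides, 2 GC boxes and 2 matches to CCAAT. The second is 53% G or C with 4 CG dinucleotides, no GC box and 1 CCAAT, and the third is 50% G or C with 8 CG dinucleotides and 2 overlapping GC boxes. Over 35116 promoter windows of the same length, the median was 58.7% G or C and 14 CG dinucleotides, 45% held a GC box and 34.6% a CCAAT on either strand. Further motifs searched on both strands had no match in these 3 windows. They were the TATA box, TATAAA, held by 11.5% of all windows, and the AP-1 site, spelled TGAGTCA, held by 4.95%. The others were the cyclic AMP response element, or CRE, spelled TGACGTCA, held by 1.85%, and the E-box, spelled CACGTG, held by 7.26%. The windows of RCE1, LRFN4 and RHOD, which did not pass the test, held 72.3%, 83.3% and 74.3% G or C and 4, 1 and 7 GC boxes. PC was the only member that passed with windows to show, so the 2 kinds of member were not compared. RCE1 held 1 CRE and LRFN4 1 E-box. C11orf86, SYT12 and C11orf80 had no window in the table used.

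The table gives 1 mean per gene and no values per library. The whole reads of each library were recovered for all 7 members, each in exactly 1 way within the range searched, from the mean, the fold change and its standard error. They are printed below divided by the library's size factor, the scale of the deposited mean. The libraries are called parental a to c and drug-tolerant a and b, since nothing ties them to the replicate numbers. Their size factors correspond to depths from about 14.19 M to 21.429 M counted reads. Among the 322 genes of chromosome 11 with a mean of 50 to 600 whose reads were recovered, parental b and c differed by a median of 0.10 on the log2 scale and the drug-tolerant libraries by 0.11. Parental a differed from parental b and c by 0.59 and 0.62, but from the drug-tolerant libraries by only 0.25 and 0.24. Parental a was nearer to the drug-tolerant mean than to the mean of parental b and c in 254 of these 322 genes (78.9%). Values are therefore given with and without parental a.

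PC had 291.3, 165.1 and 170.7 normalized reads in parental a, b and c, and 677.3 and 666.8 in drug-tolerant a and b. Both drug-tolerant libraries lay above all parental libraries, and parental a was the highest of the parental group. The means were 209.0 ± 71.3 (SD, n = 3) and 672.0 ± 7.39 (SD, n = 2), a ratio of 3.21. Against parental a alone the ratio was 2.31, and against parental b and c it was 4.0. The authors' deposited table gives PC a moderated log2 fold change of 1.40 ± 0.31 (SE), a 95% interval of 0.80 to 2.0 and an adjusted p of 0.0035.

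C11orf86 had 23.5, 48.2 and 46.8 normalized reads in parental a, b and c, and 175.5 and 195.2 in drug-tolerant a and b. The groups did not overlap, and parental a was here the lowest of the parental group, on the side away from the drug-tolerant libraries. From 39.5 ± 13.9 (SD, n = 3) to 185.4 ± 14.0 (SD, n = 2), C11orf86 rose 4.69-fold, the largest ratio of the 7 members. The smallest number behind these values is 28 reads, in parental a. The ratio was 7.89 against parental a and 3.90 against parental b and c. Its log2 fold change in the authors' deposited table is 1.74 ± 0.34 (SE), with an adjusted p of 4.9e-04, rank 5 from the highest Wald score (the fold change over its standard error) among 15223 tested genes. PC holds rank 12 by the same score in the authors' deposited table.

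SYT12 had 205.7, 138.6 and 146.8 normalized reads in parental a, b and c, and 395.1 and 410.7 in drug-tolerant a and b. Again both drug-tolerant libraries were above every parental library, with parental a the highest of its group, as for PC. The means were 163.7 ± 36.6 (SD, n = 3) and 402.9 ± 11.1 (SD, n = 2), a ratio of 2.46. The ratio was 1.96 against parental a and 2.82 against parental b and c. In the authors' deposited table SYT12 is listed at 1.13 ± 0.28 (SE) on the log2 scale, with an adjusted p of 0.019 and rank 29 by Wald score. The call of SYT12 was lost once a trend of the score over transcript length was removed (adjusted p = 0.11) and at a threshold of 0.01.

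**Figure D1:**
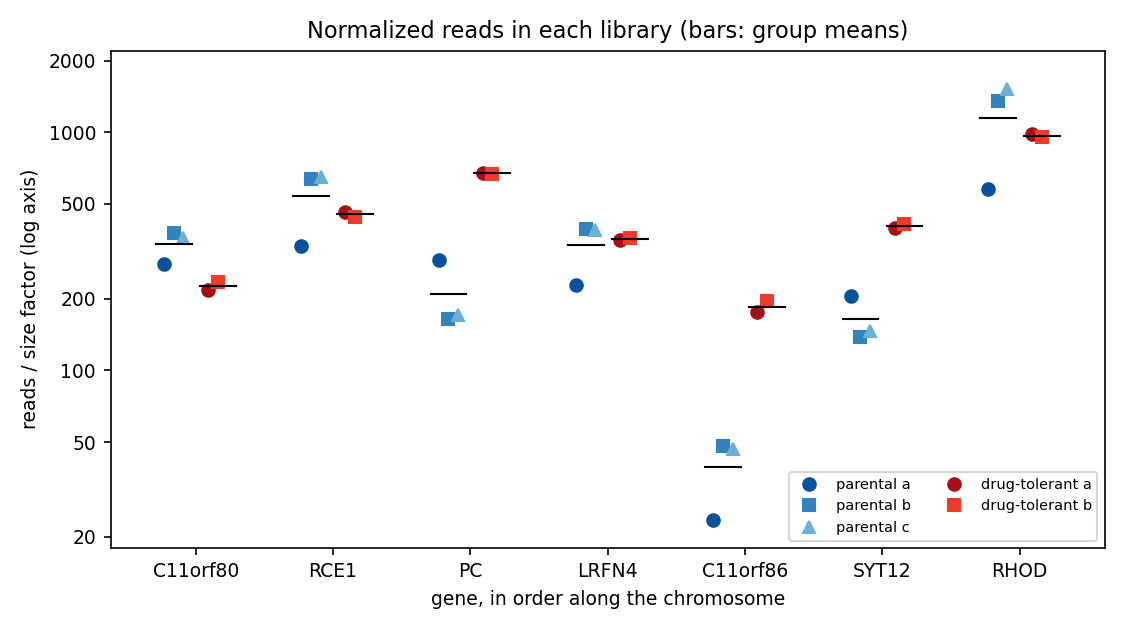
Normalized reads (reads divided by the size factor, log axis) of the 7 members in each of the 5 libraries, in order along the chromosome, with bars at the group means. For PC, C11orf86 and SYT12 both drug-tolerant libraries lie above all 3 parental libraries, and for C11orf80 both lie below, while parental a stands on the other side of the drug-tolerant libraries from parental b and c for RCE1, LRFN4 and RHOD.

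C11orf80 had 281.2, 379.4 and 360.2 normalized reads in parental a, b and c, and 218.7 and 235.8 in drug-tolerant a and b. Both drug-tolerant libraries were below all parental libraries, with parental a the nearest to them. The parental mean of 340.2 ± 52.0 (SD, n = 3) was 1.5 times the drug-tolerant mean of 227.2 ± 12.1 (SD, n = 2). The log2 fold change of C11orf80 in the authors' deposited table is −0.52 ± 0.26 (SE), with an unadjusted p of 0.049 and an adjusted p of 0.46.

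RCE1 had 332.4, 637.8 and 646.4 normalized reads in parental a, b and c, and 464.7 and 441.2 in drug-tolerant a and b. The drug-tolerant libraries stood above parental a and below parental b and c. The means, 538.9 ± 178.9 (SD, n = 3) and 453.0 ± 16.7 (SD, n = 2), differed by less than the parental SD. Drug-tolerant RCE1 was 1.36 times parental a and 0.71 times parental b and c, so the direction depended on which parental library was used. For RCE1 the authors' deposited table lists −0.20 ± 0.32 (SE) on the log2 scale, and the adjusted p is 0.76.

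LRFN4, the gene contained in PC, had 229.2, 393.1 and 390.4 normalized reads in parental a, b and c, and 352.7 and 361.3 in drug-tolerant a and b. As for RCE1, parental a was below the drug-tolerant libraries and parental b and c were above. The means were 337.5 ± 93.9 (SD, n = 3) and 357.0 ± 6.05 (SD, n = 2). The authors' deposited table gives LRFN4 a log2 fold change of 0.07 ± 0.30 (SE), with a 95% interval of −0.52 to 0.66 and an adjusted p of 0.92. LRFN4 and PC are on opposite strands, and the kit keeps strand per the labels, but whether the counting used it is not given in the sources used here. Without strand, reads from the 621 shared exonic bases cannot be told apart, and the same holds on any setting for the 381 bases that C11orf80 and RCE1 share on 1 strand.

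RHOD had 576.7, 1351 and 1524 normalized reads in parental a, b and c, and 979.7 and 954.6 in drug-tolerant a and b. The parental libraries were spread more widely for RHOD than for any other member, with b and c together 2.49 times as high as a. The means were 1151 ± 504.5 (SD, n = 3) and 967.2 ± 17.8 (SD, n = 2). The ratio to parental a was 1.68 and that to parental b and c was 0.67. The authors' deposited table lists RHOD at −0.19 ± 0.35 (SE) on the log2 scale, with an adjusted p of 0.79.

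Counted together, 3 of 7 members were called higher at an adjusted p under 0.05 and 0 lower, beside 0.263% and 0.289% of all 15223 tested genes and 0.552% in both directions. At an unadjusted p under 0.05, C11orf80 was the 1 member lower in the authors' deposited DESeq2 table. Nothing is read from these counts, since PC and C11orf86 were chosen on this contrast. All 7 members passed the authors' filter on low means. Both drug-tolerant libraries lay above all parental libraries in 3 members, against 16.5% of the 322 recovered genes of chromosome 11, and below all of them in 1 member, against 20.5%. Without parental a the groups separated in 7 of 7 members, 3 above and 4 below, but so did 90.4% of the 322 genes (35.1% above and 55.3% below), a share near that of the members.

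In PC and C11orf86 both drug-tolerant libraries were at least 2 times every parental library, a level chosen after the values were seen. Of the 322 genes, 2 (0.621%) met it, and they were PC and C11orf86 themselves. Over these 322 genes the median log2 ratio of the drug-tolerant mean was 0.06 to parental a and −0.21 to parental b and c, and the ratios had opposite signs in 167 genes (51.9%). LRFN4, RCE1 and RHOD, with a positive ratio to parental a and a negative ratio to parental b and c, are of that kind, though RHOD, with a mean of 1077, is not among the 322. PC, C11orf86 and SYT12 had positive ratios to both, and C11orf80 negative ratios to both. In 4 of the 322 genes both log2 ratios were at least 0.9, PC, C11orf86 and SYT12 included. This limit lies just under the log2 ratio of SYT12 to parental a, 0.97, so nothing is read from the count. Parental a held 1.73 times as many PC reads and 1.44 times as many SYT12 reads as the mean of parental b and c, but only 0.49 times as many C11orf86 reads, so the 3 genes were not high in the same parental library.

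**Figure D2:**
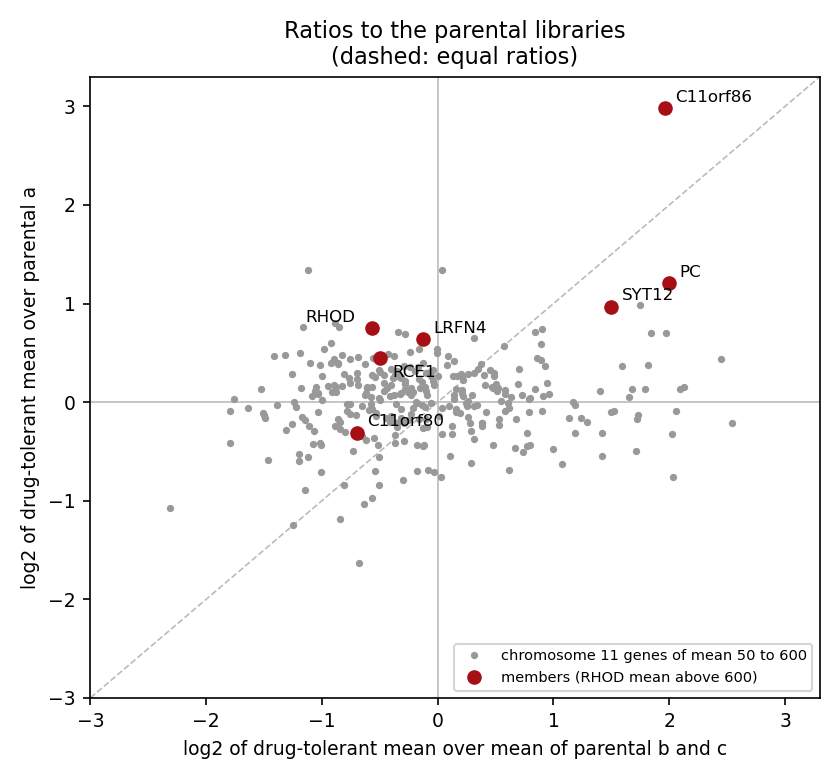
Each point is a gene, placed by the log2 ratio of its drug-tolerant mean to the mean of parental b and c (horizontal axis) and to parental a (vertical axis); grey points are chromosome 11 genes with a mean of 50 to 600 and red points the 7 members. PC (2.0 and 1.21), C11orf86 (1.96 and 2.98) and SYT12 (1.5 and 0.97) lie high on both axes, while RCE1, LRFN4 and RHOD fall where the ratios have opposite signs. PC, C11orf86 and SYT12 are among 4 chromosome 11 genes with a mean of 50 to 600 and both log2 ratios at least 0.9, a limit just under the 0.97 of SYT12.

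Per kilobase of merged exon, a scale on which genes can be compared, PC stood at 35.3 normalized reads in parental cells and 113.4 in drug-tolerant cells. C11orf86 stood at 33.3 and 156.2, and SYT12 at 15.1 and 37.2. In parental cells these were the 3 lowest of the 7 levels, SYT12 the lowest. C11orf80 had 90.4 and 60.4, LRFN4 119.4 and 126.2, RCE1 179.9 and 151.2, and RHOD, the highest of the stretch's members, 909.6 and 764.6. In drug-tolerant cells PC and C11orf86 were thus above C11orf80, PC below LRFN4 and C11orf86 slightly above RCE1, while SYT12 was still the lowest. Merged exon length overstates the transcript where starts or ends are alternative, so these levels are approximate.

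The genes on either side were taken as every other row whose gene lies within 0.5 Mb of the members, 55 rows in all, of which 40 were tested. By DESeq2 0 of these 40 were called and 2 had an unadjusted p under 0.05, beside 0.552% and 10.8% of all tested genes. With so low a share called over all genes, nothing is read from the 0. Their log2 fold changes as deposited by the authors were positive in 17 and negative in 23, with a median of −0.07, beside −0.02 over all tested genes and −0.06 over the 822 tested on chromosome 11. Of these 822 genes 4 were called higher, 3 of them PC, C11orf86 and SYT12, and 3 lower, beside 0.263% and 0.289% of all tested genes. The lowest and highest log2 fold changes of the 40 in the authors' deposited table were −0.70 and 0.58, beside 1.13 for SYT12. SYT12 was called and none of the 40 was, so a gap follows largely from that split and nothing is read from it.

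The 5 neighbours with the largest absolute Wald scores had values of both signs, and none was called. MRPL11, a mitochondrial ribosomal protein, has −0.70 ± 0.34 (SE) on the log2 scale, adjusted p 0.45, in the authors' deposited table. KDM2A, a histone demethylase gene beyond RHOD, has 0.58 ± 0.28 (SE) there, adjusted p 0.46. CTSF, a lysosomal cysteine protease, has −0.61 ± 0.34 (SE) and PITPNM1, a phosphatidylinositol transfer protein, 0.51 ± 0.31 (SE) in the authors' deposited table. DPP3, a dipeptidyl peptidase, has 0.34 ± 0.21 (SE) there. The adjusted p of CTSF, PITPNM1 and DPP3 ran from 0.49 to 0.51 in the authors' deposited table. Among 25 neighbours with a mean of at least 50 whose reads were recovered, 5 had both drug-tolerant libraries above all parental libraries, 3 below and 17 overlapping. Over the 322 chromosome 11 genes with a mean of 50 to 600, 16.5% lay above and 20.5% below, so nothing is read from these counts. The log2 ratios of group means of these neighbours ran from −0.78 to 0.62, against 1.30 for SYT12, 1.68 for PC and 2.23 for C11orf86. PC and C11orf86 were chosen on this contrast, and SYT12 was called while no neighbour was, so nothing is read from this gap either.

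**Figure D3:**
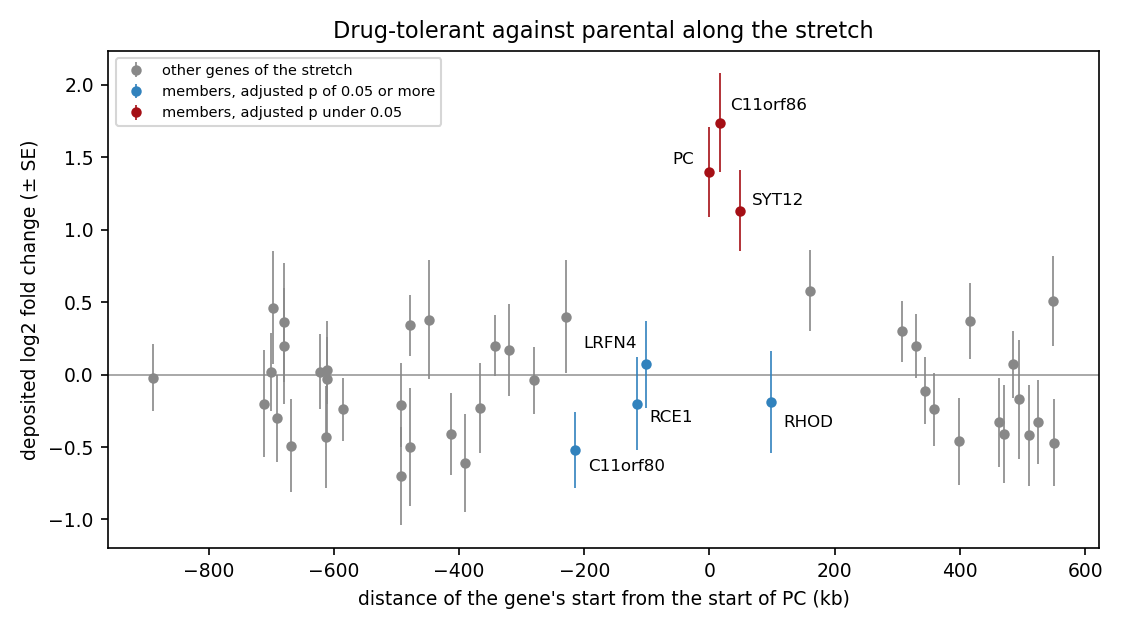
Deposited log2 fold change with its SE (vertical axis) of the tested genes within 0.5 Mb of the members, by the distance of their start from the start of PC in kb (horizontal axis). PC, C11orf86 and SYT12 (red) lie from 1.13 to 1.74 within 48.4 kb of each other, while the other 4 members (blue) and the 40 neighbours (grey) lie between −0.70 and 0.58.

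The other genes of each member's pathway or family were described from lists chosen with earlier results of these data known. Of 38 tested genes of pyruvate use and anaplerosis, 1 was called higher, PC itself, and 0 lower, beside 0.263% and 0.289% of all tested genes. At an unadjusted p under 0.05, IDH2, FBP1, PDK3 and SLC25A1 were lower, and OGDH and IDH3A were among the higher genes in the authors' deposited DESeq2 table. The median log2 fold change of the list was −0.07 in the authors' deposited table, beside −0.02 over all tested genes, with 16 positive and 22 negative. OGDH, a subunit of the oxoglutarate dehydrogenase complex, has 0.87 ± 0.30 (SE) with an adjusted p of 0.22, and IDH2, the mitochondrial NADP-dependent isocitrate dehydrogenase, −0.79 ± 0.27 (SE) with an adjusted p of 0.21 in the authors' deposited table. PKM, the pyruvate kinase that supplies pyruvate, stood at 0.00 ± 0.23 (SE) there, and LDHA, which reduces pyruvate to lactate, at −0.18 ± 0.26 (SE). The E1 subunit gene PDHA1 of pyruvate dehydrogenase, the competing route from pyruvate into the cycle, stood at −0.11 ± 0.25 (SE) and MPC1, a subunit of the mitochondrial pyruvate carrier, at −0.22 ± 0.35 (SE) in the authors' deposited table. FBP1, PDK3, SLC25A1, IDH3A, PKM, LDHA, PDHA1 and MPC1 were named after their values were seen.

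Of the 10 genes of biotin-dependent carboxylation and biotin supply, all tested, 1 was called higher, again PC, and 0 lower, also at an unadjusted p under 0.05. Over all tested genes 0.552% were called and 10.8% had an unadjusted p under 0.05. As deposited by the authors, their log2 fold changes had a median of 0.27, with 9 positive and 1 negative. BTD, the enzyme that recycles biotin, has 0.56 ± 0.30 (SE) in the authors' deposited table, ACACB, a carboxylase of fatty acid metabolism, 0.54 ± 0.36 (SE), and MCCC1, a carboxylase subunit of leucine breakdown, 0.34 ± 0.23 (SE). Their adjusted p lay between 0.47 and 0.52.

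Of 9 tested synaptotagmins, 1 was called higher, SYT12, and 0 lower, also at an unadjusted p under 0.05, beside 0.552% and 10.8% of all tested genes. The median log2 fold change over this family was 0.08 as listed in the authors' deposited table. SYT16 has 0.75 ± 0.40 (SE) and SYT2 0.64 ± 0.40 (SE) there, with adjusted p of 0.48 and 0.51.

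Of the 6 tested genes of CAAX protein processing, which include RCE1, 0 were called by DESeq2 and 0 had an unadjusted p under 0.05. The shares of all tested genes were 0.552% and 10.8%. FNTA and FNTB, the subunits of farnesyltransferase, have −0.33 ± 0.26 (SE) and 0.30 ± 0.27 (SE) in the authors' deposited table. Of 3 tested LRFN genes 0 were called, also unadjusted, beside the same shares of all tested genes. LRFN3 has −0.33 ± 0.30 (SE) in the authors' deposited table against 0.07 for LRFN4. Of the meiotic break genes only C11orf80 and ANKRD31 had enough reads to be tested. Of these 2, 0 were called by DESeq2, and C11orf80 alone had an unadjusted p under 0.05, again beside those shares. At 295.0 normalized reads in the authors' deposited table C11orf80 was far above ANKRD31 at 13, or per kilobase of exon 78.4 against 2.07.

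**Figure D4:**
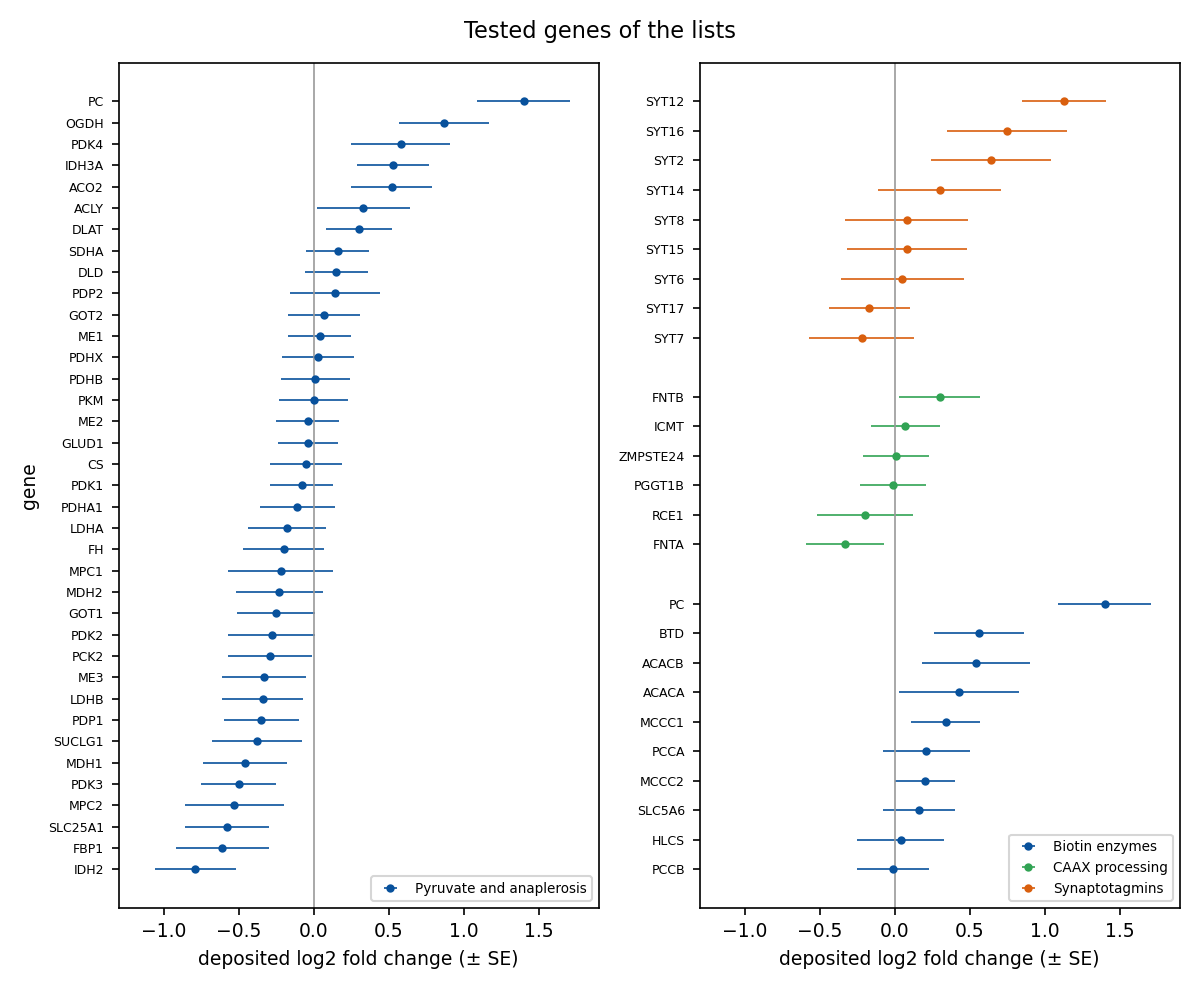
Deposited log2 fold change with its SE (horizontal axis) of tested genes (vertical axis) in the pyruvate and anaplerosis list (left) and the biotin, CAAX and synaptotagmin lists (right). PC at 1.40 and SYT12 at 1.13 stand at the top of their lists.

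The calls of PC, C11orf86 and SYT12 did not hold under 1 rescaling. When the Wald scores of all tested genes were centred and divided by their robust SD of 1.5, 0 of the 7 members and 1 gene in all were called, 1 higher and 0 lower, against 40 higher and 44 lower as deposited. The adjusted p was then 0.97 for PC, 0.78 for C11orf86 and 0.97 for SYT12. The test was not refitted without parental a.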

How the data were processed

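RNA of 5 PC9 libraries, 3 parental and 2 drug-tolerant, was sequenced after a stranded mRNA kit, per the labels' protocols. Reads were processed with FastQC, STAR and DESeq2 against hg38, per the submitters' processing notes. Versions, the counting tool and its strand setting, and the annotation were not given in the sources used here. For each gene the authors deposited 1 signal, reads divided by size factors and averaged over libraries. The deposited fold changes and standard errors are log2 values that were moderated towards 0. The deposited table also holds the Wald score, the p-value and the adjusted p-value. An adjusted p exists for 15223 genes, the lowest with a mean of 8.23, and a called gene has one under 0.05.

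Positions came from GENCODE 29, matched by gene ID for 99.3% of 27477 rows. Whole reads were recovered in Python 3.11.15 with numpy 2.4.6 and numba 0.67.0. Sets of whole reads that give a deposited mean were listed where their group ratio lay near that implied by the deposited fold change. They were screened on the dispersion, and genes with no set were searched again more widely. A set was kept where the authors' DESeq2 model, recomputed on it, gave the deposited fold change and standard error within 1.5e-07. Its dispersion also had to lie within 0.01 (log) of the moderated value given by its reads and the trend over the mean, or the likelihood slope over log dispersion to be under 0.01. Of 344 genes on chromosome 11, 341 had exactly 1 such set within this search, 3 none and 0 more than 1. Tested on data simulated at the levels of genes with a mean of 50 to 600, 80 of 80 genes were right. RHOD, with a mean of 1077, lies outside that range. Size factors and the sign came from genes of low mean: reads in 3 libraries pulled the fold change below 0 and in 2 above 0, which matches the group sizes, so positive is higher in drug-tolerant cells. Means ± SD and ratios were computed from these reads. The planned edgeR test for counts was not run, because the table holds no counts for all genes.

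The members and lists were chosen with earlier results of these data known. Named genes are the members, the called genes and the 5 largest absolute Wald scores within 0.5 Mb, the called genes and up to 3 smallest p of each list, and called genes within 250 kb of another. Some genes and 1 gene list are left unnamed and not reported here, but no gene was taken out of a count. Thresholds, filters, length, centring, scaling and leaving out each library were varied.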

Additional observations from a re-analysis of the deposited data

How the results depend on the processing

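The count of 3 members called was 2 at an adjusted p threshold of 0.01 and with the length trend removed, 3 with an added log2 fold change of at least 1, with a mean of at least 50 or with no filter, and 0 with the Wald score centred and scaled. The pyruvate list likewise went from 1 to 0 only when centred and scaled. Over all genes, 84 calls became 39 at 0.01 (25 higher, 14 lower) and 1 when centred and scaled (1 higher, 0 lower), and from 60 to 85 under the other settings. The 0 calls among neighbours stayed 0 under every setting run, beside 0.552% of all tested genes called as deposited. With the length trend removed, the Wald score of RHOD turned from -0.55 to 0.27 (adjusted p 0.96), neither called. Leaving out each library in turn, the number of members whose groups did not overlap ran from 4 to 7, 7 only without parental a, where 90.4% of the 322 chromosome 11 genes separate too. Without parental a the log2 ratio became 2.0 for PC, 1.96 for C11orf86 and 1.5 for SYT12. LRFN4's ratio, not called, was 0.08 with size factors and -0.03 on unscaled reads. The causes were not tested. No paired analysis was possible because the table has no column per library and the recovered libraries carry no replicate numbers. Low read numbers limit C11orf86 most, at 28 reads in parental a, the library with the largest size factor.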

Other observations

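Among the 84 called genes, 11 lay within 250 kb of another called gene, in 4 groups. PC, C11orf86 and SYT12 formed the only group that was higher in drug-tolerant cells. The stretch drew attention through this same contrast, so nothing is read from its place among the groups. SCD, the desaturase that makes monounsaturated fatty acids, and the adjacent non-coding gene OLMALINC on chromosome 10 were both lower, at -1.40 ± 0.35 (SE) and -1.52 ± 0.32 (SE), with adjusted p of 0.024 and 0.0014 in the authors' deposited table. Another group was 4 clone-named rows on chromosome 21 with log2 fold changes from -1.01 to -1.0 in the authors' deposited table. If the counting split reads among near-identical copies, these 4 rows are not separate observations. No comparison of these groups with one another was made.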
